A study of Mus musculus with 3 samples.

Results

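Conventional type 2 dendritic cells (cDC2) of the mouse kidney were picked from droplet single-cell RNA counts by a rule on single genes. A barcode was a cDC2 when it held 1672 or more unique molecular identifiers (UMIs) over 200 or more genes, with no more than 50% of them mitochondrial, and 10 or more UMIs of H2-Ab1, an MHC class II chain. It also had to hold Cd209a, or both Clec10a and Flt3. At most 2 UMIs of the complement genes C1qa, C1qb and C1qc, at most 2 of the tubule genes Lrp2 and Slc34a1, at most 1 of Cd3g, Cd79a and Siglech, and none of Xcr1 and Clec9a were allowed. The rule found 334 cDC2 among 48404 cells that passed the limits on UMIs, genes and mitochondrial share, out of 73281 barcodes.

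The cells came from 3 mice, 1 library per mouse, all given folic acid (FA) and killed on day 14. Of the libraries, 2 were from Aoah-/- mice (replicates 2 and 3) and 1 was from a WT mouse (replicate 3), and the labels give an age of 6 to 8 weeks, while the captions of the study give a higher range for FA mice. Aoah encodes acyloxyacyl hydrolase, an enzyme that removes fatty acyl chains from bacterial lipopolysaccharide, and the knockout is carried by every cell of the mouse. No library of a mouse without FA was used here, so every value below is from an injured kidney. The libraries held 167222984, 161015021 and 158551992 UMIs in the order Aoah-/- 2, Aoah-/- 3 and WT, and values follow that order throughout.

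Dendritic cells take up antigen, cut it into peptides and show these to T lymphocytes. Type 2 cells load peptides on MHC class II for CD4 T lymphocytes, carry lectins of the CD209 and CLEC10A families, and depend on the transcription factor IRF4. Type 1 cells (cDC1) carry XCR1 and CLEC9A, depend on IRF8 and BATF3 and are known for presenting engulfed antigen on MHC class I. Ly6c2-high monocytes are blood-borne cells that enter inflamed tissue and share several surface receptors with cDC2, which makes them the closest neighbours to compare.

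Comparison cells were gated in the same way. The cDC1 gate asked for H2-Ab1 at 10 UMIs or more and at least 1 UMI of Xcr1 or Clec9a without Cd209a, and it held 45, 60 and 39 cells. The monocyte gate asked for at least 2 UMIs of Ly6c2, 1 of Ccr2 and 5 of Lyz2, without Retnlg, Cd209a, Xcr1, Clec9a or the pair of Clec10a and Flt3, and it held 113, 142 and 64 cells. Because counts of these genes chose the cells, the 18 genes used by the gates were not tested, and genes that vary with them share in that choice.

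The cDC2 numbered 106, 110 and 118. Cd209a without the other pair brought in 86, 89 and 96 of them, and both routes held for 17, 20 and 18. Clec10a together with Flt3 and no Cd209a brought in only 3, 1 and 4 cells. The median cDC2 held 6512.5, 7773.5 and 7214 UMIs over 1935, 2179 and 1942 genes, with 5.30%, 4.12% and 4.83% mitochondrial UMIs. No barcode was a cDC2 in more than 1 library, although 171 to 176 barcodes of all kinds were shared by each pair. Of the cDC2 barcodes, 1 or 2 per pair also occurred in the other library.

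Cd209a, a C-type lectin at chr8:3743397-3748984 on the minus strand of GRCm38, had a median of 5, 5.5 and 5 UMIs per cDC2. A single Cd209a UMI was all that 19, 17 and 19 cells held. After every cell was thinned to 1672 UMIs, Cd209a was seen in 67.9% (exact 95% interval 58.2 to 76.7%), 66.4% and 74.6% of cDC2, against 0.12%, 0.27% and 0.27% of T lymphocytes, which should lack it and had a median of 2938, 3255 and 3266 UMIs before thinning. Clec10a, a galactose-binding lectin at chr11:70156197-70170834, was found in 61.3%, 54.5% and 56.8% of the unthinned cDC2. Flt3, the receptor for the growth factor that maintains dendritic cells, was found in 30.2%, 29.1% and 33.9%. These genes admitted the cells, so nothing is read from the likeness of the libraries or the contrast with T lymphocytes. Intervals here and below cover counting error only.

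Some limits of the rule were close to many cells. The limit on Lrp2 and Slc34a1 had 19, 21 and 17 cDC2 exactly at its 2 UMIs and 40, 47 and 67 holding none. Cells just inside the H2-Ab1 limit, with 10 to 14 UMIs, numbered 5, 3 and 8, and cells that met every other condition with 5 to 9 UMIs numbered 5, 11 and 3, and with 0 to 4 UMIs 22, 39 and 9. Cd74, the invariant chain of MHC class II, stood at 6934, 7034 and 4039 CPM (the UMIs of a gene in the summed cells, scaled to a total of 1000000 UMIs) just inside and at 3982, 3213 and 4975 just outside. In the WT mouse the cells just outside were therefore not the lower ones. On the side of the complement genes, 17, 24 and 15 cDC2 held 1 or 2 UMIs, 5, 4 and 4 cells were left out with 3 to 10, and 8, 9 and 14 with more than 10.

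Across all genes, UMIs were summed over the cells of each gate in each library, which gave 9 sums for 3 gates in 3 libraries, and the library was fitted as a block. Each mouse gives 1 library, so the block takes up the differences between mice. The spread behind these tests is how much the differences between gates vary among 3 mice of 2 genotypes, with 4 residual degrees of freedom. A gene was called at an adjusted p of at most 0.05 and a difference of at least 2-fold. Of 6348 genes tested, 545 (8.59%) were higher and 302 (4.76%) lower in cDC2 than in cDC1, and 535 (8.43%) were higher and 479 (7.55%) lower than in monocytes. These are the shares of all genes beside which every count of a gene list below stands. In both contrasts 138 genes were higher in cDC2 and 37 lower. Another 100 were higher than in cDC1 and lower than in monocytes, and 53 the reverse.

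The cells were also described by marker genes that the gates did not use. These are no independent check of the label. They were chosen with earlier results of these data known, and those that vary with the gate genes share in the choice of cells. Of 18 such cDC2 markers with enough counts to test, 14 were higher in cDC2 than in cDC1 and none was lower, while 9 were higher than in monocytes and 2 lower. Irf4, the factor cDC2 depend on, stood at 51.2, 56.7 and 45.1 CPM in cDC2 against 2.84, 0 and 5.35 in cDC1 and 3.15, 0 and 2.74 in monocytes. All 18 tested cDC1 markers were lower than in cDC1, and 20 of 23 tested monocyte markers were lower than in monocytes, with none higher. Of the same monocyte markers 12 were higher and 2 lower than in cDC1. Zbtb46, a factor of conventional dendritic cells, had 40.2, 28.4 and 29.7 CPM in cDC2, 42.7, 60.7 and 53.5 in cDC1 and 0 in every monocyte library. Of 12 tested markers shared by conventional dendritic cells, 10 were higher than in monocytes and none lower, and 3 were higher and 2 lower than in cDC1.

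Markers of other cell types were summed in each library. The 9 T lymphocyte markers summed to 51.2, 56.7 and 35.2 CPM and the 8 B lymphocyte markers to 23.5, 7.94 and 88.1, of which Ly6d gave 2.77, 0 and 74.9. The 10 neutrophil markers summed to 27.7, 251 and 27.5 CPM, led by S100a9, of which 103 of 121 UMIs in Aoah-/- mouse 3 lay in 1 cell. Markers that cDC2 may share gave more, 953, 1018 and 848 CPM for the 16 of macrophages and 417, 389 and 373 for the 9 of plasmacytoid dendritic cells, led by Bst2. The 14 proximal tubule markers, none of them at 0 in cDC2, summed to 1796, 1742 and 1456 CPM, led by Kap at a mean of 687. Kap was seen in 63.2%, 66.4% and 63.6% of thinned cDC2 and in 79.6%, 84.1% and 84.3% of T lymphocytes, which should lack it. The limit on Lrp2 and Slc34a1 was set for cDC2 and not for T lymphocytes, and cDC2 held more UMIs before thinning. Nothing is therefore read from the lower share in cDC2. The 10 markers of other tubule segments summed to 389, 259 and 193 CPM. The 5 erythroid markers summed to 3322, 85.1 and 6284 CPM, led by the globin gene Hbb-bs, and 1272 of its 1298 UMIs in Aoah-/- mouse 2 and 2462 of 3051 in the WT mouse lay in 1 cDC2 each. Of these markers 4 were called higher than in cDC1 and 1 higher than in monocytes, and the part of those 2 cells in the calls was not tested.

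The cDC2 were rarer in both Aoah-/- libraries than in the WT library. They made up 0.686% (95% interval 0.562 to 0.830%), 0.559% (0.459 to 0.673%) and 0.889% (0.737 to 1.06%) of the kept cells. The 2 Aoah-/- libraries averaged 0.623%, which was 0.267 percentage points under the WT library, with an SD of 0.0904 between them. With 1 WT mouse no test between genotypes can be made. The interval of Aoah-/- mouse 2 overlapped that of the WT mouse, and that of Aoah-/- mouse 3 did not.

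The size of that gap depended on what the cells were counted against. Per cell with a UMI of Ptprc, the pan-leukocyte gene, cDC2 numbered 1.84, 1.60 and 3.67 for every 100. The cDC1 made up 0.291%, 0.305% and 0.294% of the kept cells and did not differ beyond counting error. Monocytes made up 0.732%, 0.721% and 0.482%, a mean Aoah-/- share 0.244 percentage points above the WT library with an SD of 0.00758. The ratio of cDC2 to monocytes was accordingly 0.938, 0.775 and 1.84. Cells with Ptprc numbered 5760, 6877 and 3215, and the share of barcodes kept was 60.5%, 79.7% and 57.5%, so the denominators differed between libraries too. Their part in the gap was not tested. With no limit on UMIs, which leaves Aoah-/- mouse 3 as it was, the difference between genotypes was -0.145 percentage points, and with at most 20% mitochondrial UMIs it was -0.357.

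**Figure D1:**
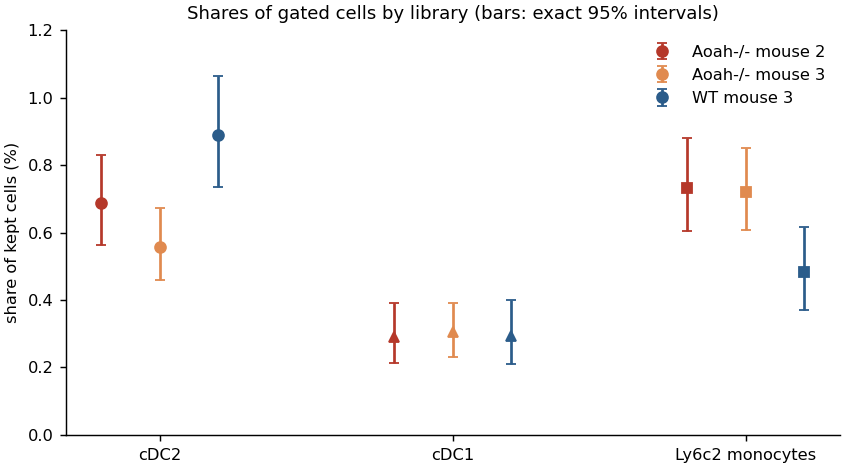
Share of kept cells (%) that passed each gate, for cDC2, cDC1 and Ly6c2 monocytes, with 1 point per library and bars for exact 95% binomial intervals. The WT library has the highest cDC2 share (0.889%) and the lowest monocyte share (0.482%), while the 3 cDC1 shares lie between 0.291% and 0.305%.

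The genes of MHC class II were abundant in cDC2 and set them apart from monocytes. H2-Ab1 itself stood at 11111, 11493 and 11299 CPM by the rule. Cd74 reached 17241, 18206 and 19575 CPM against 14406, 13857 and 16503 in cDC1 and 2515, 2226 and 2006 in monocytes. H2-Aa, the alpha chain that pairs with H2-Ab1, reached 10021, 10239 and 11517 CPM against 1266, 1050 and 889 in monocytes. The monocyte values never overlapped those of cDC2. H2-Ab1 counts were required of cDC2 and not of monocytes, so the difference follows in part from the rule, although 16.8%, 18.3% and 14.1% of monocytes also held 10 or more UMIs of H2-Ab1.

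Sequences of 4 MHC class II promoters are shown because their genes were all higher than in monocytes, while against cDC1 H2-DMb2 was higher, H2-Ob lower, and H2-Aa and H2-Eb1 did not pass. Each is the 150 bases before a RefSeq transcript start (GRCm38.p6, chromosome 17, written 5′ to 3′ on the gene's strand). Capitals mark ATTGG or, on the other strand, CCAAT, the core letters of the Y box of class II promoters, and GCAAC followed by any base and GATG, letters taken for the X box.

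H2-Aa, chr17:34287824-34287973, minus strand: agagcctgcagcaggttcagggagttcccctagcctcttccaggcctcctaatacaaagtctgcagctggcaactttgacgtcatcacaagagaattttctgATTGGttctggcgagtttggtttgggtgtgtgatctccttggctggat
H2-Eb1, chr17:34305717-34305866, plus strand: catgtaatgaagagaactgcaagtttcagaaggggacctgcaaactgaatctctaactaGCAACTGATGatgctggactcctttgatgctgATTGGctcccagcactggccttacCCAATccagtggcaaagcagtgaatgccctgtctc
H2-DMb2, chr17:34145099-34145248, plus strand: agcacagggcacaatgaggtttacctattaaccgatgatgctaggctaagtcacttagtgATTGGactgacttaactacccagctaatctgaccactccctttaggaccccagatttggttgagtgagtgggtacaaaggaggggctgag
H2-Ob, chr17:34238755-34238904, plus strand: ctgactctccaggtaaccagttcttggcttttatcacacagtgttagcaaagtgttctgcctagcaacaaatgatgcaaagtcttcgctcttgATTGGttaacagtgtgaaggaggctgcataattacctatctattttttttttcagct

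ATTGG began 48 bases before the start in H2-Aa, 59 in H2-Eb1, 90 in H2-DMb2 and 57 in H2-Ob. Of the 15 genes of the class II list, 12 had a promoter entry, and 7 of the 8 H2 genes among these held the letters on either strand, against 24.5% of all 32851 promoter windows of this length. The X box letters, searched on both strands, were present in 2 of the 8 and in 0.0974% of all windows. The H2-DMb2 window lies inside the span that the GENCODE annotation of the same build gives the gene (chr17:34143307-34151555), and the H2-Ob window ends 1 base past the first base of its span. A match of letters is a description of the window.

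Of 13 tested class II loading genes, 10 were higher in cDC2 than in monocytes and none lower, with a median log2 fold of 3.1. By edgeR's quasi-likelihood test with Benjamini-Hochberg adjustment, H2-Eb1 differed by 3.99 ± 0.12 on the log2 scale (adjusted p = 6.1e-12). Here and below, the value after ± is an approximate SE, the log2 fold over the square root of the test's F statistic. It can be too small where a gate holds few UMIs of the gene. H2-Oa, a chain of the H2-O protein that restrains peptide loading, had 173, 163 and 215 CPM against 1.57, 1.14 and 2.74 in monocytes. Ciita, the activator of class II transcription, had 98.3, 110 and 65.0 CPM against 7.87, 14.8 and 13.7. Ctss, the protease that trims the invariant chain, was not higher, at 1097, 1120 and 1001 CPM against 1757, 1875 and 1685.

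Against cDC1 the same list was mostly level. Cd74, H2-Aa, H2-Eb1, H2-DMa and H2-Oa did not pass the test, with log2 differences of 0.21 ± 0.09 for Cd74 and 0.16 ± 0.11 for H2-Aa. H2-DMb2, a chain of the H2-DM peptide loader, was higher in cDC2, with 296, 294 and 244 CPM against 85.3, 97.4 and 58.9 in cDC1 (log2 fold 1.69 ± 0.17, adjusted p = 4.2e-06, edgeR). H2-Ob, the partner of H2-Oa, was lower, with 99.7, 63.5 and 81.5 CPM against 151, 147 and 171 (log2 fold -1.05 ± 0.19, adjusted p = 9.1e-04). Neither set of 3 overlapped. H2-DMb1, a near copy of H2-DMb2, stood at 712, 790 and 675 CPM in cDC2 against 728, 704 and 837 in cDC1. Reads that match both copies cannot be told apart. The proteases Ctss and Lgmn and the thiol reductase Ifi30 were higher in cDC2, Ifi30 at 1130, 1222 and 1086 CPM against 475, 362 and 415.

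**Figure D2:**
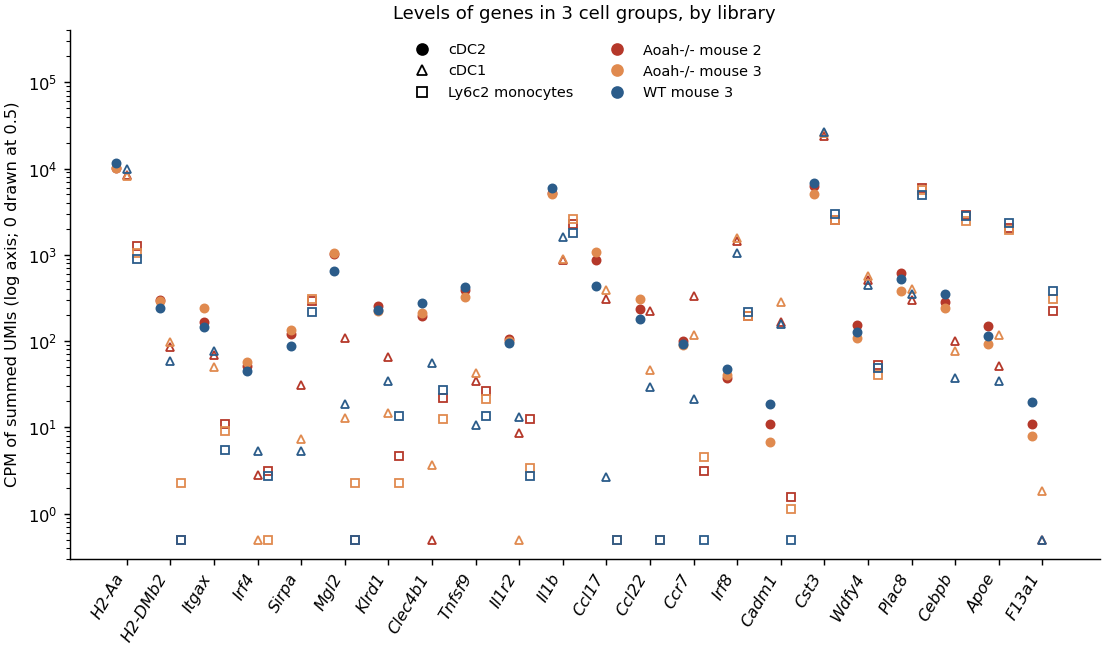
Level of 22 genes in cDC2 (filled circles), cDC1 (open triangles) and Ly6c2 monocytes (open squares), in CPM of summed UMIs on a log axis, with 1 point per library and 0 drawn at 0.5. Mgl2, Tnfsf9 and Irf4 are highest in cDC2 in every library, Irf8 and Cst3 in cDC1, and Plac8, Cebpb and F13a1 in monocytes.

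Mgl2 and Ptgs2 were among the 15 largest called rises over cDC1. Mgl2, a close relative of Clec10a at chr11:70130329-70137550, had 1014, 1052 and 653 CPM in cDC2, 108, 12.9 and 18.7 in cDC1 and 0, 2.28 and 0 in monocytes. Its log2 fold was 4.40 ± 0.33 over cDC1 (edgeR, adjusted p = 1.3e-07) and 9.71 ± 0.52 over monocytes (adjusted p = 1.9e-09). Monocytes held so few Mgl2 UMIs that the size of the second fold is uncertain by more than its ± of 0.52. With 1 library left out, the folds ran from 3.73 to 5.72 over cDC1 and from 9.14 to 12.0 over monocytes. After thinning, 46.2%, 49.1% and 42.4% of cDC2 held a Mgl2 UMI, against 0.73%, 0.90% and 0.36% of T lymphocytes. The gene was thus found in fewer than all cDC2 and far above background in each library.

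Ptgs2, the inducible cyclooxygenase, had 417, 346 and 339 CPM in cDC2 against 14.2, 0 and 8.03 in cDC1 (log2 fold 5.77 ± 0.49, edgeR, adjusted p = 6.3e-07) and 51.9, 159 and 85.1 in monocytes. Tnip3, an inhibitor of NF-kappaB signalling, had 536, 589 and 641 CPM against 71.1, 7.35 and 13.4 in cDC1 and 33.0, 17.1 and 38.4 in monocytes. Il1r2, the decoy receptor for interleukin 1, had 105, 101 and 94.7 CPM, with no more than 13.4 in any library of the other cells. These 3 genes were above both neighbours in every mouse. Dab2, an endocytic adaptor, and Tmem176b were called in both contrasts as well.

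A second set was higher than in cDC1 and shared with monocytes. S100a4, a calcium-binding protein, stood at 1437, 1799 and 1701 CPM in cDC2, 208, 36.8 and 61.5 in cDC1 and 2320, 2475 and 2865 in monocytes. Ms4a4c stood at 289, 239 and 240 CPM, 11.4, 22.1 and 0, and 571, 626 and 549. Zeb2, a transcription factor that cDC2 and monocytes both need, stood at 259, 259 and 252 CPM, 19.9, 9.19 and 29.4, and 480, 589 and 538. In each of these genes the 3 gates kept the order cDC1, cDC2, monocyte in every library. Mcemp1, Cd300a, Emb, Ccl9, Itgam and Socs3 were also among the 15 genes with the largest called rise over cDC1, with log2 folds between 3.77 and 4.30. Itgam, the CD11b chain used to sort cDC2, was at 168, 126 and 123 CPM against 25.6, 3.68 and 0 in cDC1.

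What cDC1 had above cDC2 was led by genes known for that subset. Irf8 stood at 37.4, 40.9 and 47.4 CPM in cDC2 against 1459, 1554 and 1038 in cDC1 (log2 fold -5.07 ± 0.16, edgeR, adjusted p = 9.1e-12). It also stood under monocytes, at 197, 195 and 220, so cDC2 had the least of the 3 gates. P2ry14, a receptor for UDP-sugars, had 6.92, 0 and 2.20 CPM against 108, 158 and 158. Tlr3, the endosomal sensor of double-stranded RNA, had 5.54, 4.54 and 2.20 against 96.7, 175 and 107. Ppt1, Rab7b, Cadm1, Itgae, Dnase1l3, Serpinb6b and Ifi205 completed the 10 largest called falls, with log2 folds from -5.56 to -3.98. Cst3, the protease inhibitor cystatin C, reached 6194, 5008 and 6828 CPM in cDC2 and 23667, 25914 and 26806 in cDC1.

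A pair of chemokines that draw T lymphocytes was found in cDC2 and not in monocytes. Ccl17, a ligand of CCR4 at chr8:94810453-94812036, had 876, 1085 and 432 CPM in cDC2 and no UMI in any monocyte library. Taking 3 UMIs over the 3 libraries as the most that a count of 0 allows, it was at least 494-fold higher in cDC2. Ccl22, the other CCR4 ligand, lies on the same chromosome at chr8:94745590-94751699, had 233, 305 and 183 CPM and was at least 150-fold higher. Both also passed against cDC1, with log2 folds of 1.90 ± 0.36 and 1.41 ± 0.38 (edgeR, adjusted p = 0.0015 and 0.015). In cDC1, Ccl17 had 307, 388 and 2.68 CPM and Ccl22 had 225, 46.0 and 29.4, so that for Ccl22 the gates were close in Aoah-/- mouse 2. Within cDC1, 70 of 108 Ccl17 UMIs of Aoah-/- mouse 2 and 182 of 211 of Aoah-/- mouse 3 lay in 1 cell, as did 21 of 25 Ccl22 UMIs of Aoah-/- mouse 3, so both comparisons rest on few cDC1. Of 13 tested chemokine ligands, 6 were higher and 1 lower than in cDC1, and 6 were higher and none lower than in monocytes. Ccl4, an inflammatory chemokine, had 447, 558 and 518 CPM against 109, 148 and 85.1 in monocytes. Cxcl9, a ligand of CXCR3, was the ligand lower than in cDC1, at 20.8, 82.8 and 92.5 CPM against 503, 259 and 169.

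Klrd1, which encodes the natural killer receptor chain CD94, had 255, 222 and 230 CPM in cDC2 against 4.72, 2.28 and 13.7 in monocytes (log2 fold 5.54 ± 0.36, edgeR, adjusted p = 1.6e-08). The 7 natural killer markers summed to only 15.2, 19.3 and 6.61 CPM in cDC2. Itgax, the CD11c chain of dendritic cells, had 165, 239 and 146 CPM against 68.2, 49.6 and 77.6 in cDC1 and 11, 9.10 and 5.49 in monocytes. P2ry10, Tbc1d4 and AA467197 were also among the largest called rises over monocytes. Of these, AA467197 alone was called against cDC1 as well, at 312, 288 and 138 CPM in cDC2.

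Monocytes exceeded cDC2 in genes of the blood monocyte. Chil3, a chitinase-like lectin, had no UMI in cDC2 and 744, 787 and 609 CPM in monocytes, which makes it at least 618-fold lower in cDC2. Hp, haptoglobin, had 6.92, 6.81 and 15.4 CPM against 480, 537 and 557. Apoe, the lipid carrier, had 150, 93.0 and 116 CPM against 2067, 1963 and 2358. Mgst1, F13a1, Clec4e, Slc11a1, Thbs1, Gsr and Ace were the other large falls. Vcan, the matrix proteoglycan of classical monocytes, was also without a UMI in cDC2 against 53.5, 67.1 and 63.1 CPM. The monocyte program was therefore at or near 0 for some genes and lower for others, Ifitm3 having 2409, 2350 and 2385 CPM against 5509, 5227 and 6186.

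**Figure D3:**
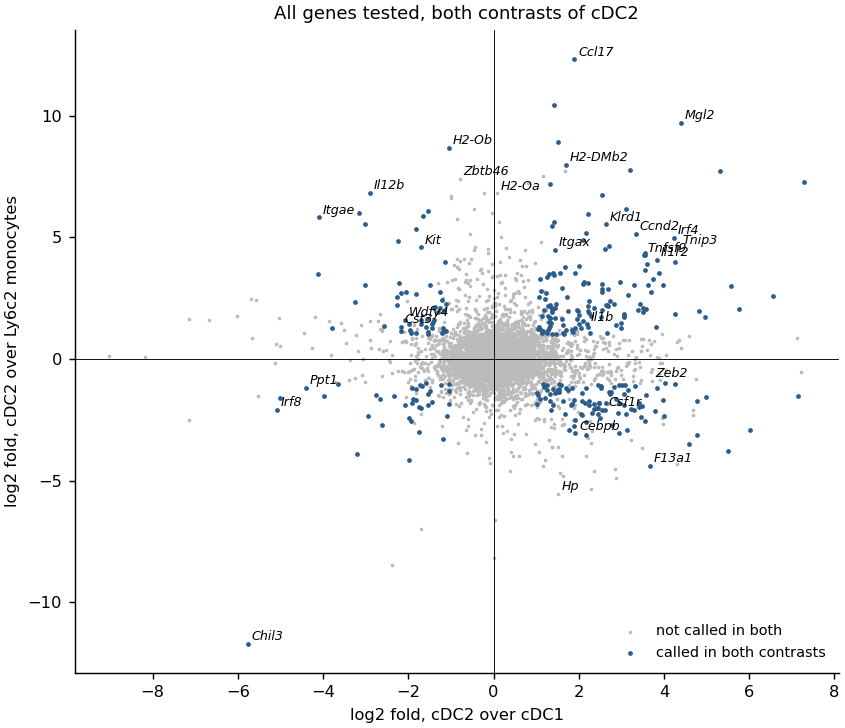
Log2 fold of cDC2 over cDC1 (horizontal) against log2 fold of cDC2 over monocytes (vertical) for the 6348 tested genes, with blue points called in both contrasts. The upper right holds the 138 genes higher in cDC2 than in both neighbours, Mgl2, Klrd1 and Irf4 among them, and the lower right the 100 genes between cDC1 and monocytes. Both axes share the cDC2 values, so their likeness is no result.

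Of 25 tested transcription factors, 9 were higher and 4 lower than in cDC1, and 6 were higher and 5 lower than in monocytes. Among all genes 8.59% were higher and 4.76% lower than in cDC1, and 8.43% higher and 7.55% lower than in monocytes. Irf4, Relb and Bcl11a were higher than in both neighbours, and Irf8 and Irf7 were lower than in both. Cebpb, a factor of monocyte differentiation, lay between them, with 285, 243 and 349 CPM against 99.5, 77.2 and 37.5 in cDC1 and 2863, 2463 and 2846 in monocytes. Klf4 stood at 263, 269 and 336 CPM and was not called against either, with log2 folds of 0.59 ± 0.17 over cDC1 and -0.67 ± 0.15 over monocytes.

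Growth factor receptors were called at shares near those of all genes against cDC1 (8.59% higher and 4.76% lower). Kit had 38.8, 20.4 and 27.5 CPM in cDC2, 71.1, 77.2 and 112 in cDC1 and 0, 2.28 and 0 in monocytes. Csf1r, the receptor that maintains monocytes and macrophages, had 132, 135 and 91.4 CPM, 31.3, 11 and 16.1, and 596, 609 and 491. It was called in both directions, 6.13-fold above cDC1 and 4.26-fold below monocytes. Csf2ra and Csf2rb, the chains of the GM-CSF receptor, passed against neither, Csf2ra at 212, 221 and 197 CPM. Of 17 tested receptors, 2 were higher and 1 lower than in cDC1, and 2 higher and 3 lower than in monocytes.

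Lectins and genes of Fc receptors and signalling were largely higher in cDC2 than in cDC1. Of 17 tested lectins 10 were higher and 1 lower. Of 12 tested genes of Fc receptors and signalling 9 were higher, with Syk, Tyrobp, Lilrb4a and Lilra6 among them, and none was lower. Against monocytes the lectins split, with 6 higher and 5 lower, and the genes of Fc receptors and signalling with 1 higher and 2 lower. Clec4b1 had 195, 210 and 278 CPM against 0, 3.68 and 56.2 in cDC1 and 22.0, 12.5 and 27.4 in monocytes. Cd209d, a neighbour and relative of Cd209a, had 22.2, 34.0 and 31.9 CPM and no UMI in either other gate. Reads that match both of these genes cannot be told apart. Mrc1, the mannose receptor, had 130, 138 and 82.6 CPM against at most 21.4 elsewhere. Ly75, the DEC-205 receptor of cDC1, was the lectin that was lower than in cDC1. Fcgr1, CD64, the receptor used to tell macrophages from dendritic cells, was at 33.2, 26.1 and 23.1 CPM against 143, 119 and 173 in monocytes. It was lower than in monocytes but higher than in cDC1.

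Of 19 tested sensors of microbial products, 10 were not called against cDC1 and 10 were not called against monocytes. Tlr2, the lipoprotein receptor, had 81.7, 78.3 and 79.3 CPM against 14.2, 11 and 18.7 in cDC1. Tlr3, Tlr11 and Tlr12 were lower than in cDC1, and Tlr7, Tlr8 and Tlr13 lower than in monocytes. Tlr7 had 5.54, 1.13 and 4.40 CPM against 112, 83.1 and 60.4. Cd14, the coreceptor for lipopolysaccharide, lay between the gates at 327, 271 and 330 CPM. Tlr4 itself had 5.54, 2.27 and 3.30 CPM and too few counts to test. Of the 19, 6 were higher and 3 lower than in cDC1, and 2 higher and 7 lower than in monocytes. The shares of all genes were 8.59% higher and 4.76% lower than in cDC1, and 8.43% higher and 7.55% lower than in monocytes.

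Cytokine genes were led by Il1b, the precursor of interleukin 1 beta. It had 5218, 5128 and 5884 CPM in cDC2, 876, 899 and 1600 in cDC1 and 2265, 2572 and 1809 in monocytes. Its log2 fold was 2.20 ± 0.18 over cDC1 and 1.42 ± 0.17 over monocytes (edgeR, adjusted p = 4.2e-07 and 1.3e-05). The median cDC2 held 28, 31 and 33.5 Il1b UMIs, and 100, 94 and 106 cells held at least 1, so the level was spread over most of them. Tnf had 134, 89.6 and 52.9 CPM and also exceeded both neighbours. Ltb, lymphotoxin beta, had 65.1, 36.3 and 59.5 CPM against at most 10.7 in cDC1 and 16.5 in monocytes. Il12b, a subunit of interleukin 12, had 23.5, 17.0 and 11 CPM in cDC2, from 1, 4 and 1 cells, and 435, 66.2 and 5.35 in cDC1, from 3, 5 and 2 cells. It passed as lower than in cDC1 but was higher in the WT mouse, and few cells carry the comparison. Tgfbi, Osm and Il15 were lower than in monocytes. Of 13 tested cytokine genes, 5 were higher and 1 lower than in cDC1, and 4 higher and 3 lower than in monocytes. Il10 was seen as 1.13 CPM in Aoah-/- mouse 3 only.

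Tnfsf9, the 4-1BB ligand, had 389, 323 and 426 CPM against 34.1, 42.3 and 10.7 in cDC1 and 26.7, 21.6 and 13.7 in monocytes, the largest gap of that list in both contrasts. Cd83, a marker of activated dendritic cells, had 912, 724 and 792 CPM and was higher than in monocytes and not called against cDC1. Cd86 was called in neither contrast, at 141, 91.9 and 157 CPM against 253, 182 and 190 in cDC1. Sirpa, the CD172a receptor of cDC2, was higher than in cDC1 and lower than in monocytes, at 120, 136 and 87.0 CPM. Havcr2, TIM-3, was lower than in cDC1, at 48.5, 31.8 and 55.1 CPM against 128, 158 and 163. In all, 4 of 12 tested genes were higher and 1 lower than in cDC1, and 7 higher and 3 lower than in monocytes.

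Genes of migrating, mature dendritic cells were present in part. Ccr7, the receptor that guides cells to lymph nodes, had 101, 89.6 and 91.4 CPM in cDC2, 333, 118 and 21.4 in cDC1 and 3.15, 4.55 and 0 in monocytes. It was called against monocytes and not against cDC1, where the libraries spread widely. Fscn1, the actin bundler of mature cells, had 4.15, 2.27 and 7.71 CPM and Apol7c had no UMI in cDC2. Of 16 tested genes of the list, 10 were higher and 1 lower than in monocytes, and 7 higher and 1 lower than in cDC1. Of 8 tested chemokine receptors, 5 were higher and 1 lower than in cDC1, and 4 higher and 1 lower than in monocytes. Among them Ccr1 was higher than in cDC1, while Cxcr3 was lower at 2.77, 0 and 3.30 CPM against 65.4, 71.7 and 61.5.

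Of 15 tested genes of presentation on MHC class I, 2 were lower than in cDC1, against 4.76% of all genes. Psmb9, a subunit of the immunoproteasome, had 213, 227 and 229 CPM against 611, 752 and 669 in cDC1. Tap2, a chain of the peptide transporter, had 83.1, 46.5 and 71.6 CPM against 188, 158 and 131. B2m, the light chain of class I, had 1951, 1839 and 1836 CPM and was called in neither contrast. None of the 15 was higher than in cDC1, and none was called against monocytes. Wdfy4, which cDC1 need to cross-present, stood between the gates, at 154, 109 and 129 CPM against 515, 564 and 452 in cDC1 and 53.5, 41.0 and 49.4 in monocytes.

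Most tested genes of cell division were higher than in monocytes. Of 15 tested, 11 were higher than in monocytes and none lower, and 2 (Cdk1 and Ube2c) were lower than in cDC1. The sum over all 17 list genes in the files was 1778, 2689 and 2504 CPM in cDC2 against 2460, 3741 and 3328 in cDC1, and most of it was the histone gene H2afz, at a mean of 1461 CPM in cDC2. Mki67, a proliferation marker, had 72.0, 110 and 104 CPM against 6.29, 7.97 and 2.74 in monocytes. After thinning, 3.77% (95% interval 1.04 to 9.38%), 8.18% and 4.24% of cDC2 held 3 or more UMIs of 12 division genes, against 1.77%, 0% and 0% of monocytes and 6.67%, 6.67% and 7.69% of cDC1. Without thinning the cDC2 shares were 5.66%, 17.3% and 5.93%. These shares move with depth and do not bound the share of dividing cells. Ccnd2, a D-type cyclin, had 332, 322 and 413 CPM against 76.8, 14.7 and 16.1 in cDC1 and 7.87, 11.4 and 13.7 in monocytes.

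Of 23 tested interferon genes, 6 were higher and 3 lower than in cDC1, and 2 higher and 8 lower than in monocytes. Over all genes 8.59% were higher and 4.76% lower than in cDC1, and 8.43% higher and 7.55% lower than in monocytes. The count higher than in monocytes was thus near the share of all genes. Ifi204 had 40.2, 57.9 and 45.1 CPM against 400, 420 and 392 in monocytes. Cxcl10 varied between mice, with 101, 372 and 197 CPM, of which 41.1%, 41.2% and 63.1% lay in 1 cell. Of 18 immediate early and heat shock genes, 6 were higher than in monocytes and 3 higher than in cDC1, with none lower. Egr1, a gene also known to rise during tissue digestion, was among both, at 601, 544 and 358 CPM. The 3 kidneys were dissociated with collagenase, and its part in these values was not tested.

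Of 6 tested lipopolysaccharide handling genes, 3 were higher than in cDC1 and 3 lower than in monocytes, with 1 higher than in monocytes. Of 16 integrin and adhesion genes, 4 were higher and 3 lower than in cDC1, and 4 higher and 4 lower than in monocytes. Of 19 lysosomal genes, 5 were higher and 4 lower than in cDC1, and 1 higher and 4 lower than in monocytes. For all genes the shares were 8.59% higher and 4.76% lower than in cDC1, and 8.43% higher and 7.55% lower than in monocytes. Of 5 genes around CD74 and its ligand MIF, Cxcr4 was higher than in cDC1, Cd74 and Ddt higher than in monocytes and Cd44 lower than in monocytes. Mif itself had 177, 151 and 119 CPM and was called in neither contrast. Over all 6348 genes the median log2 fold was -0.0048 against cDC1 and -0.0061 against monocytes, which the TMM factors of the fit bring near 0 by design.

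The cDC2 also varied among themselves. Cells were thinned to 1672 UMIs and split by whether they kept a UMI of Mgl2, Ccl17 or Lyz2. These splits are descriptions, since a split and its values come from the same cells, and 1 UMI in a thinned cell equals 598.1 CPM. Those with Ccl17 numbered 17, 26 and 15. Ccl22 was found in 64.7%, 53.8% and 40.0% of them and in 11.2%, 4.76% and 10.7% of the others, so the 2 chemokine genes went together in all 3 mice. Mgl2 was found in 88.2%, 73.1% and 53.3% of cells with Ccl17 and in 38.2%, 41.7% and 40.8% of those without.

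Among cells with Mgl2, Klrd1, which no gate used, was found in 14.3%, 20.4% and 26.0%, against 40.4%, 25.0% and 30.9% of cells without.

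Lyz2, the lysozyme gene of myeloid cells, was kept by 49, 59 and 69 cells. Plac8 was found in 49.0%, 33.9% and 34.8% of these and in 24.6%, 23.5% and 12.2% of the others. Ccr2 was found in 49.0%, 54.2% and 46.4% against 28.1%, 29.4% and 24.5%. Ly6c2, which the monocyte gate uses, was found in 18.4%, 10.2% and 4.35% of cells with Lyz2 and in 0%, 1.96% and 0% of those without.

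**Figure D4:**
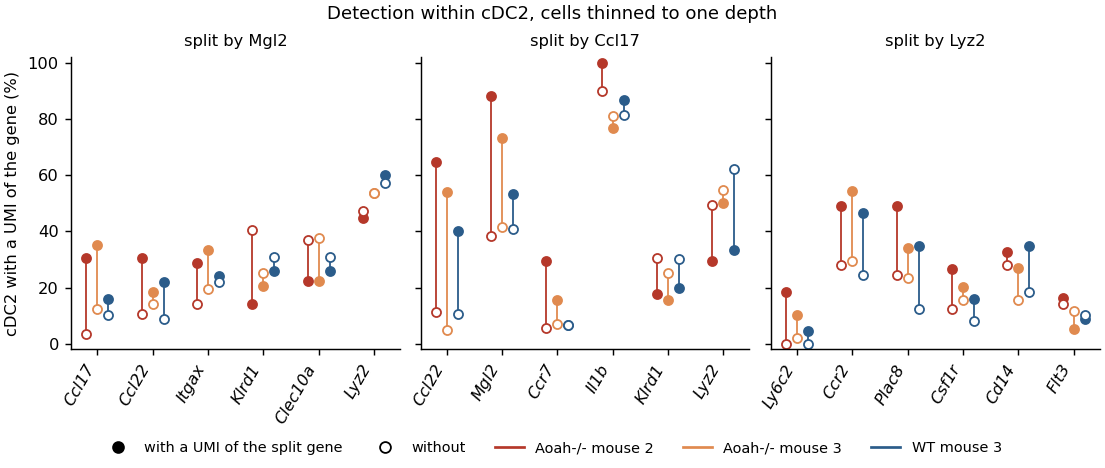
Share of cDC2 (%) with a UMI of each gene after thinning to 1672 UMIs, for cells with (filled) and without (open) a UMI of Mgl2, Ccl17 or Lyz2, with 1 colour per library. Ccl22 and Mgl2 lie higher in cells with Ccl17 in all 3 libraries, and Ly6c2, Ccr2, Plac8, Csf1r and Cd14 lie higher in cells with Lyz2. Clec10a and Flt3 are genes of the rule, so nothing is read from their points.

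The targeted gene was counted first between genotypes. Aoah (chr13:20794113-21036617, plus strand) had no UMI in cDC2 of any library, among 722249, 881249 and 908082 UMIs, which allows up to 4.15, 3.40 and 3.30 CPM. In all kept cells it had 856, 807 and 2202 UMIs, or 6.78, 6.19 and 18.3 CPM. Proximal tubule cells held most of these, at 12.1, 10.5 and 25.6 CPM. The level was lower in both Aoah-/- libraries and was not 0. The part of the gene that the allele removes is not given in the sources used here, and a 3′ count outside that part would not show the deletion.

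Values between genotypes are log2 ratios of the mean Aoah-/- CPM to the WT CPM with 10 CPM added to each, with the SD between the 2 Aoah-/- mice and no test. Cd74 was at -0.14 (SD 0.06) and Il1b at -0.19 (SD 0.02). Cd209a was at 0.00 (SD 0.18), and the sum of the 15 class II genes was 51557, 53599 and 55399 CPM. Because Cd209a and the class II gene H2-Ab1 chose the cells, nothing is read from these values or from that of Cd74. Of 2596 genes with 50 CPM or more in the WT library or in the mean of the Aoah-/- libraries, 10 (0.385%) were at least 2-fold higher and 17 (0.655%) at least 2-fold lower in Aoah-/- cDC2, with both Aoah-/- mice on the same side of the WT mouse by more than their own gap. Of these 27 genes 24 met the minimum in 1 genotype only, the one where they were high, as did 426 of the 2596, so the minimum is partly met through the difference that is counted.

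Ccl17 was the cDC2 chemokine among them. Its 876 and 1085 CPM in the Aoah-/- mice compare with 432 (exact 95% Poisson interval 390 to 477) in the WT mouse, a log2 ratio of 1.17 (SD 0.22). It was found in 31, 38 and 24 cells. The highest cell held 107 of 633, 245 of 956 and 145 of 392 UMIs, so counts clump in cells and the interval is too narrow for a comparison of mice. In cDC1 the same gene had 307, 388 and 2.68 CPM, from few cells. AA467197 had 312 and 288 CPM against 138 (115 to 164). Clec4n, the dectin-2 gene, had 95.5 and 76.0 CPM against 37.4 (25.9 to 52.3).

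Gm8730 and Tpm3-rs7, copies of other genes, gave the largest ratios among the genes that were higher in Aoah-/- cDC2. Gm8730 had 230 and 254 CPM against 35.2 (24.1 to 49.7) in the WT mouse. It had 290 and 270 CPM against 34.8 in cDC1 and 283 and 244 against 38.4 in monocytes, so the gap was not a property of cDC2 alone. Reads of such copies also match the genes they derive from. Rsad2, an interferon-induced gene, had 55.4 and 63.5 CPM against 19.8 (11.7 to 31.3). Cirbp, a cold-inducible RNA-binding protein, had 66.5 and 48.8 CPM against 22.0. Fabp4, Umod and Hspb1 had 50% or more of their UMIs in 1 cell of an Aoah-/- library.

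The 17 lower genes rested mostly on single WT cells. In 12 of them 50% or more of the WT UMIs lay in 1 cDC2. Dcn, a matrix gene of fibroblasts, had 1.38, 0 and 172 CPM, and 2 WT cells held 87 and 66 of its UMIs. Sprr1a, a gene of stressed epithelium, had 6.92, 1.13 and 111 CPM, and the WT cell with the most UMIs (23024) held 72. That cell was the highest one for 7 of the 17 genes. Ly6d, Gstm1, Gsta4, Pi16, Krt15 and Retnla were the other largest falls, and 208 of the 216 WT UMIs of Retnla lay in 1 cell. Without cells of high UMI totals, the log2 ratio turned positive for Sprr1a, Gstm1, Gsta4, Pi16, Krt15 and Retnla. The 9 endothelial and fibroblast markers summed to 45.7, 82.8 and 291 CPM in cDC2, and Dcn was the largest part in the WT mouse only. Doublets were not removed, and their part in these values was not tested.

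Without the cell that held most of each gene in each library, an alternative chosen after seeing these data, 15 genes were past the fold, 8 higher and 7 lower, and only 9 of them were among the 27. Ccl17 then had 728, 807 and 272 CPM. Of the 19 gene list sums, 5 had both Aoah-/- mice on the same side of the WT mouse by more than their own gap, 4 higher and 1 lower. Among the higher was the sum of C-type lectins, led by the rule gene Cd209a. The lower was that of CD74 and MIF, led by the class II gene Cd74. Nothing is read from either sum, since Cd209a and H2-Ab1 chose the cells. With TMM factors, which rescale the libraries, the split was 2 higher and 5 lower.

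**Figure D5:**
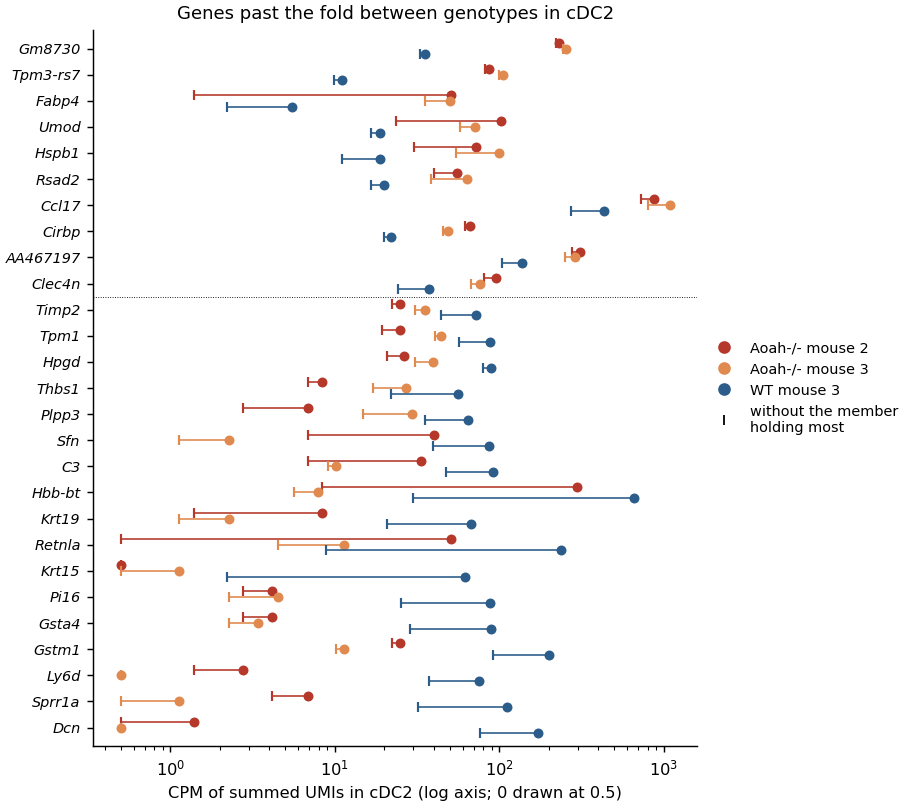
CPM in cDC2 of the 27 genes past the fold between genotypes, on a log axis with 1 dot per library and 0 drawn at 0.5, the upper 10 higher and the lower 17 lower in Aoah-/- mice. The tick on each line is the value without the cell that held most of the gene's UMIs. Among the WT values, those of Krt15, Retnla and Hbb-bt move furthest.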

How the data were processed

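Kidneys of FA-treated mice were perfused, digested with collagenase IV and DNase I and strained before droplet capture. For each library the authors deposited unscaled counts (UMIs per gene and barcode) of 27998 genes, all whole numbers. Their processing notes name Cell Ranger 3.1.0, STAR, Seurat 4.2.0 and mm10, and the matrix header names 6.1.2, so the version behind the counts is uncertain. Barcodes held at least 500, 1672 and 500 UMIs, so the highest of these was used as a limit for all. Gates were applied to unscaled counts. Doublets were not removed. UMIs were summed per gate and library and fitted with edgeR 4.0.16 (R 4.3.3, genes kept by filterByExpr, TMM factors, quasi-likelihood, library as block, 9 sums, 4 residual degrees of freedom), leaving out 18 gate genes and 13 mitochondrial genes. Library numbers 2 and 3 name the mice, and the block pairs the gates of the same mouse. Of the symbols, 65 are repeated in the files. The genotype comparison had 1 WT library and no test. Detection was compared in cells thinned to 1672 UMIs. Intervals are exact (Clopper-Pearson for shares, Poisson for sums). A count of 0 was taken to allow 3 UMIs. Each script with a test across genes was tested on simulated data.

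The members, the gene lists and the markers were chosen with earlier results of these data known, so their counts are descriptions. Named genes were the gate genes, the 15 largest rises and 10 largest falls among called genes with 100 CPM or more in the same direction in all 3 libraries, the 8 largest rises and falls between genotypes, and members of the lists. Alternatives were DESeq2 1.42.0, other scaling, filters, gates and limits, no block, and leaving out each library. Promoters were RefSeq's for GRCm38.p6, the build of mm10, and gene positions GENCODE's. Lists covered 14 sets of cell type markers and 19 of functions, and 4 of their genes are not listed in the files. A few list members are not reported here by name.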

Additional observations from a re-analysis of the deposited data

Results flagged for a closer look

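Some genes differed between cDC2 and a neighbour in opposite directions in the Aoah-/- and the WT libraries. None of these differences was tested. Hspb1, a small heat shock protein, had 72.0 and 99.9 CPM in Aoah-/- cDC2 against 2.84 and 18.4 in cDC1, while the WT mouse had 18.7 in cDC2 and 93.6 in cDC1. Against monocytes it had the same cDC2 values, with 11 and 47.8 CPM in the Aoah-/- mice, and 18.7 in WT cDC2 against 43.9. Lyz2 was at 1170 and 1458 CPM in cDC2 against 930 and 875 in cDC1 of the Aoah-/- mice, and at 1556 against 1825 in the WT mouse.

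Malat1, a nuclear RNA, was at 9116 and 8868 CPM against 10294 and 9906 in monocytes of the Aoah-/- mice and at 9012 against 8554 in the WT mouse. Gstm1, a glutathione transferase, was at 24.9 and 11.3 against 75.5 and 94.5, and at 199 against 113 in the WT mouse, where 98 of its 181 cDC2 UMIs lay in 1 cell. Ifit1, an interferon-induced gene, was at 42.9 and 32.9 against 20.4 and 15.9, and at 9.91 against 32.9 in the WT mouse.

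Other genes, picked by the same kind of screen, moved between genotypes one way in cDC2 and the opposite way in a neighbour. Cebpb was at 285 and 243 CPM in Aoah-/- cDC2 and 349 in WT cDC2, and at 99.5, 77.2 and 37.5 in cDC1. Cd74 was lower in Aoah-/- cDC2 (17241 and 18206 against 19575 CPM) and higher in Aoah-/- monocytes (2515 and 2226 against 2006). H2-Aa did the same, at 10021 and 10239 against 11517 CPM in cDC2 and 1266 and 1050 against 889 in monocytes. Counts of the class II gene H2-Ab1 chose the cDC2, so nothing is read between genotypes from Cd74 and H2-Aa in cDC2. Il1b was at 5218 and 5128 against 5884 CPM in cDC2 and at 2265 and 2572 against 1809 in monocytes. Calr, a chaperone of the endoplasmic reticulum, was higher in Aoah-/- cDC2 (640 and 582 against 474 CPM) and lower in Aoah-/- monocytes (327 and 341 against 461). UMIs of a gene clump in cells, and 1 WT library stands behind each of these values.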

How the results depend on the processing

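Limits: 1 WT library, 39 to 142 cells per gate and library, and genes chosen by gates leave no test between genotypes. The difference in cDC2 share (-0.267 percentage points) was -0.357 with at most 20% mitochondrial UMIs, -0.145 without a UMI limit and -1.94 among cells with Ptprc, and it ran from -0.331 to -0.203 when either Aoah-/- library was left out. The 847 calls against cDC1 became 552 with DESeq2 (364 higher, 188 lower, 549 of them shared) and 688 to 859 without 1 library. The 1014 calls against monocytes became 692 with DESeq2 and 907 to 1013 without 1 library. Without the replicate block, in which the gates of each mouse are paired, the calls were 836 and 1006. No paired analysis was possible between genotypes, because there was 1 WT mouse and the labels give no pairing of mice. The causes were not tested.

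The 27 genes past the fold between genotypes became 13 with 50 CPM added, 8 at 100 CPM or more, 111 without a minimum, 11 without cells of high UMI totals (6 shared), 15 without the cell that holds most of each gene, an alternative chosen after seeing the data, and 44 to 52 with 1 Aoah-/- library, where 19 and 26 were shared. Without cells of high UMI totals the log2 ratio turned positive for Sprr1a (0.22), Gstm1 (0.22), Gsta4 (0.39), Pi16 (0.27), Krt15 (0.099) and Retnla (1.12). The 15 largest rises and 10 largest falls kept their direction and call in 225 of 225 comparisons with the 9 alternatives, against cDC1 and against monocytes alike. These genes were chosen as called, large and of the same direction in all 3 libraries, so that count follows largely from the choice. Other genes named were not put through these 9 alternatives. Of 76 values of gene list levels between genotypes under alternatives, 18 moved by more than the spread and 58 did not.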
